A study of Oncorhynchus mykiss with 32 samples.

Results

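The transcripts described here encode proteins of transcription, chromatin, RNA processing, translation and DNA replication in the liver of rainbow trout. They were 35 cDNA clones, of the 7763 that had 5 or more values per group. They were picked by words in the Swiss-Prot match of each clone (transcription, zinc finger, homeobox, histone, DNA, RNA, splic, ribosom, helicase or elongation factor) in the study's supplementary lists of transcripts that differed between diets (169 entries) or between lines (161 entries). Those lists hold transcripts found by ANOVA, by SAM (Significance Analysis of Microarrays) or by both. The study itself considered only those found by both, and which members these are is not given here. Clones whose match named a kinase, phosphatase, receptor, GTPase or metal regulatory factor were left out, which removed 4 clones. The diet list gave 18 of the 35 and the line list 17, and no clone was on both. All 35 had a value on each of the 32 arrays, so that none was lost to the filter on missing values.

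These proteins act at successive steps of gene expression. Transcription factors and chromatin enzymes set which genes are read, splicing and RNA-binding proteins mature the transcripts, ribosomes, tRNA enzymes and elongation factors translate them, and replication and repair proteins copy and mend the DNA. The liver is a main site of lipid handling in trout and makes most plasma proteins, so that much of its RNA and ribosome output serves secretion. By role, 9 members belonged to transcription and chromatin and 9 to splicing and RNA binding or decay. Another 9 belonged to the ribosome, tRNA and translation, and 7 to DNA replication, repair and the centromere. The remaining one, FYCO1, is a vesicle trafficking protein that met the words only through a synonym. Names are those of the best Swiss-Prot match, which was a fish protein for 4 members, and no position in the trout genome is given for the clones.

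Livers came from trout of a lean muscle line (L) or a fat muscle line (F), obtained by 3 generations of divergent selection on muscle fat, fed a low energy diet (LE, 10% lipid) or a high energy diet (HE, 23% lipid) for 6 months from first feeding. Each of the 4 groups, named by line and diet (L-LE to F-HE), had 8 livers, each hybridized to its own nylon array. The labels number 3 sets of livers per group, taken here to be the tanks of the study. The 2 diets differed also in fish oil, protein and starch, and each line is a single selected stock. Values are the deposited signals relative to the median of the array, on the log2 scale, so that 0 is the array median. The livers are bulk tissue, in which fewer cells of a type and less RNA per cell cannot be told apart.

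The F-HE array on membrane 59 stood apart from the rest. Its median Spearman correlation with the other arrays was 0.159, against 0.828 to 0.967 for them, and its control spots had a median of 0.71, against 5.71 to 7.62. A further 5 arrays (3 L-LE, 1 F-LE and 1 F-HE) had a median correlation under 0.9. Clones of liver secreted proteins (10 clones) averaged 4.0 to 5.06 on the other arrays and 0.42 on membrane 59, muscle markers (4 clones) 1.27 to 2.69 and 0.28, and red blood cell markers (3 clones) 0.25 to 1.28 and 0.29. The counts and the differences that follow are therefore given with and without this array, unless said otherwise.

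Among the members, membrane 59 gave the lowest F-HE value for 22 and the highest for 8, and it lay outside the range of the other 7 F-HE arrays in 30 of 35 (85.7%), as it did in 77.4% of all clones with 8 F-HE values. Of the 22 members with a median above 0 on the other arrays, 21 were lower on membrane 59 than the median of the other F-HE arrays. TF2H2, a subunit of a general transcription factor, was lower by a log2 difference of -4.85 and the mitochondrial ribosomal protein RM40 by -3.73. Of the 13 members at or under 0, 8 were higher there, up to a difference of 5.78 for TRM1, whose best match was an archaeal tRNA methyltransferase. The median standard deviation of the members in F-HE was 0.574 with this array and 0.358 without it, compared with 0.36 in L-LE, 0.265 in L-HE and 0.348 in F-LE. UNG (a difference of -0.04) and MLL3 (-0.21) were moved least.

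**Figure D1:**
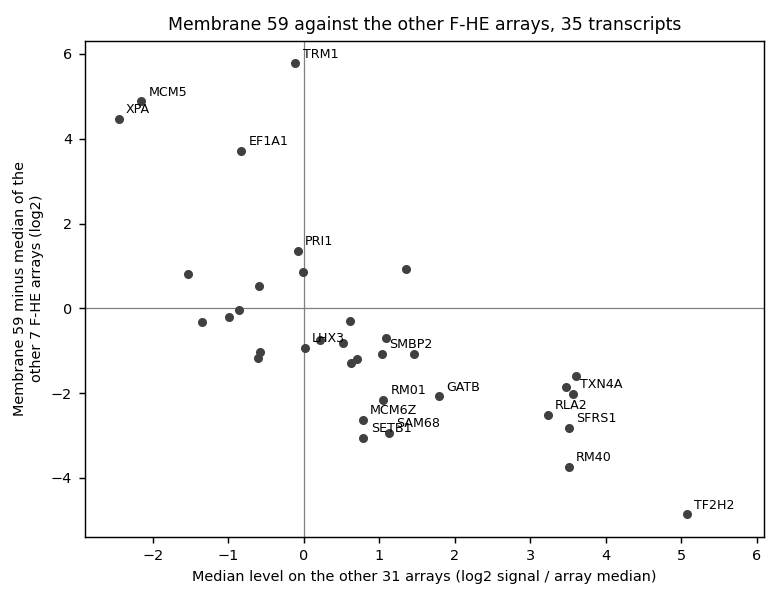
For each of the 35 transcripts (points), the horizontal axis gives the median log2 signal on the 31 other arrays and the vertical axis the value on membrane 59 minus the median of the other 7 F-HE arrays (log2). Points with a level above 0 lie below the horizontal line in 21 of 22 cases, and TRM1, MCM5, XPA and EF1A1 lie highest.

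In contrasts that had no part in choosing them, no member passed the threshold, an adjusted p (Benjamini-Hochberg, over all 7763 clones) under 0.15 in the limma fit. Of the 17 members listed for line, none was called for diet, compared with 19 of all clones (0.245%). Of the 18 members listed for diet, none was called for line, nor was any clone of the table (0%). The interaction of diet and line was called in none of the 35 and in no clone (0%). At an unadjusted p under 0.05, the diet contrast had 1 of the 17 (3.65% of all clones), the line contrast 0 of the 18 (3.32%) and the interaction 1 of the 35 (6.74%). Without membrane 59 these counts were 0 (7.45%), 1 (5.37%) and 1 (4.59%), and none was called (0.528% of all clones for diet, 0.0129% for line and 0% for the interaction). The shares in the members were thus near those in the whole table. No member was on both lists, so the study had not listed any of them for the other factor. It used arrays of this same series, so that the counts for diet and line in part restate this and are described only. The 2 members past the unadjusted limit with all arrays were SMBP2 for diet and EXOS4 for the interaction.

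In the contrasts on which the study had listed them, the members can only be described, since arrays of this same series chose them. The diet list leaned one way: 14 of its 18 members had a lower mean on the HE diet, with a median difference (HE minus LE) of -0.30, against a median of -0.01 over all clones. Without membrane 59 it was again 14 of 18, with a median of -0.15. The other 151 clones of the diet list leaned the same way, 116 of them lower on HE (76.8%, median -0.31), and 114 without membrane 59 (75.5%, median -0.27), so that the direction is that of the list the members were drawn from. Of the line members, 10 of 17 were lower in the F line with a median difference (F minus L) of -0.09, or -0.11 without membrane 59. Of the other 144 clones of the line list, 53 were lower in the F line (36.8%, median 0.13), and 55 without membrane 59 (38.2%, median 0.17). At an unadjusted p under 0.05, 8 of the 18 stood out for diet with all arrays (3.65% of all clones) and 10 without membrane 59 (7.45%), compared with 2 of the 17 for line in both settings (3.32 and 5.37%). None was called at an adjusted p under 0.15 with all arrays. Without membrane 59, 3 members of the diet list were called (0.528% of all clones), PRI1, SYK and LHX3, all lower on HE. In the two-way ANOVA named in the study's methods, at p under 0.01 on all 8 livers per group, 5 of the 18 stood under the limit for diet (1.11% of all clones) and 0 of the 17 for line (0.683%), compared with 8 (1.71%) and 0 (1.31%) without membrane 59. With all arrays the member just inside that limit was RM40 (diet difference -0.96) and the one just outside CUGB1 (-0.43).

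Among marker clones of the liver and of other tissues on the same lists, diet differences were mixed. Of the 4 muscle clones, 3 had a lower mean on HE with all arrays and 2 without membrane 59. Of the 10 clones of liver secreted proteins, these counts were 8 and 3. PRVA, a calcium-binding parvalbumin of fast muscle, was called (diet difference -0.53, adjusted p = 0.0709, limma). Without membrane 59 it had -0.54 (adjusted p = 0.0301). Of the 3 red blood cell clones, ERMAP, an erythroid membrane protein, had -0.76 (adjusted p = 0.165, limma) and -0.66 without membrane 59 (adjusted p = 0.116, limma). B3AT, the anion exchanger of red cells, had 0.35 and 0.47, and the remaining clone, RHAG, had 0.025 and -0.083. The ovary clone, ZP3, had -0.126 and -0.24. The mean of the muscle clones lay at 1.27 to 2.69 on LE and 2.02 to 2.55 on HE without membrane 59, and that of the red blood cell clones at 0.25 to 1.28 and 0.67 to 1.18. PRVA, ERMAP, B3AT and ZP3 were on the diet list, so that their diet differences are described only. The part of these clones in the differences of the members was not tested.

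**Figure D2:**
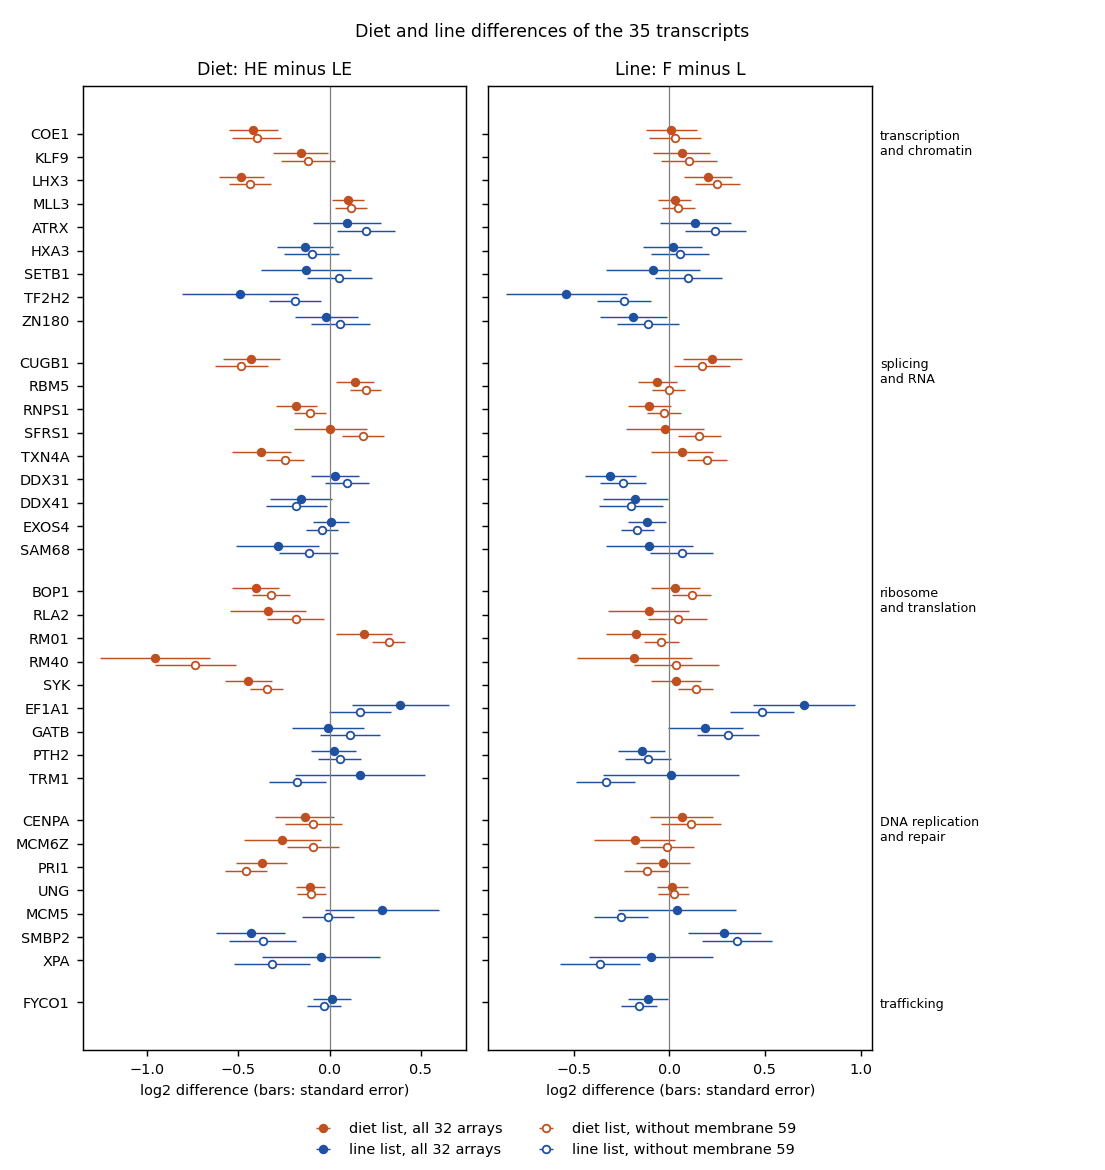
Log2 differences of the 35 transcripts for diet (left, HE minus LE averaged over lines) and line (right, F minus L averaged over diets), ordered by role. Points are limma estimates and bars their standard errors, filled with all 32 arrays and open without membrane 59, with the diet list in orange and the line list in blue. Most orange points on the left lie below 0 (14 of 18), while the blue points on the right lie on both sides (10 of 17 below 0).

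No member separated any pair of groups completely: between diets within a line, or between lines on a diet, the values overlapped in all 35, where 0.0644% of all clones did not overlap for diet in the L line, 0.0515% in the F line and 0.0386% for line on either diet. Across the 2 lines, whose livers are different fish, the diet difference of the diet list had the same sign in 15 of 18 members with all arrays (13 lower and 2 higher on HE in both lines). Without membrane 59 it was 17 of 18, all but MCM6Z, a replication licensing factor. In the line list, the line difference had the same sign on both diets in 6 of 17 members with all arrays and in 13 of 17 without membrane 59, the exceptions being ATRX, PTH2, DDX41 and EXOS4. The choice of the members on the averaged contrast favours equal signs, so that these counts describe the members only.

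**Figure D3:**
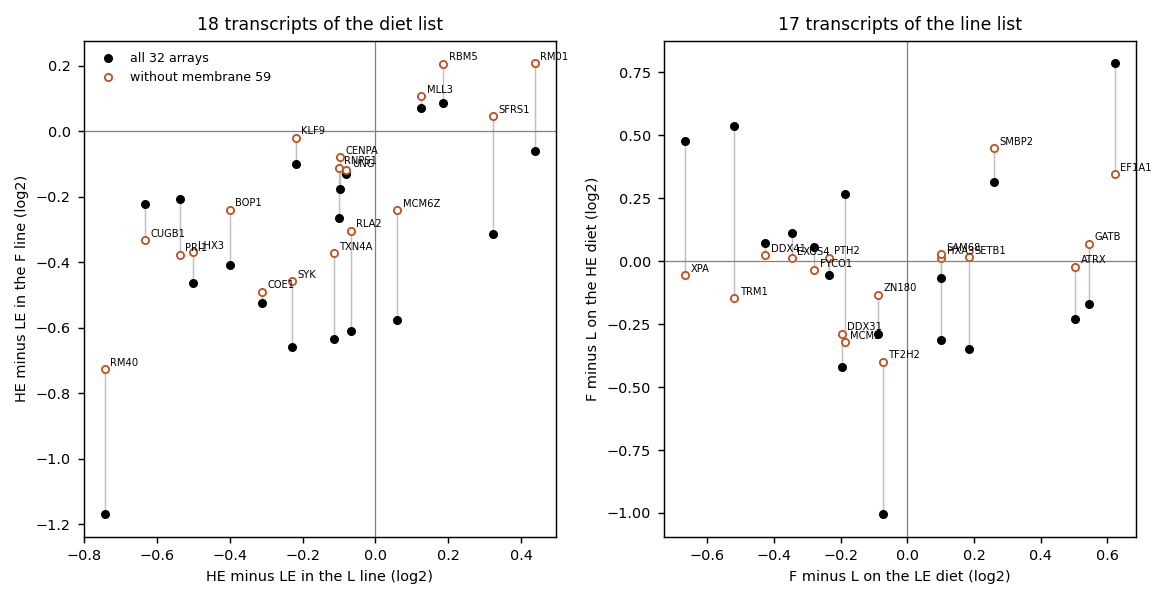
Left, the diet difference (HE minus LE, log2) of the 18 transcripts of the diet list in the L line (horizontal) against the F line (vertical). Right, the line difference (F minus L, log2) of the 17 transcripts of the line list on the LE diet (horizontal) against the HE diet (vertical). Black points use all 32 arrays, open points leave out membrane 59 and grey lines join the 2 values of a transcript. Same signs in both strata number 15 of 18 and 6 of 17 for black points, and 17 of 18 and 13 of 17 for open points.

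Transcription factors and chromatin proteins had 4 members from the diet list (LHX3, COE1, KLF9 and MLL3) and 5 from the line list (TF2H2, ATRX, SETB1, HXA3 and ZN180). LHX3 is a LIM-homeodomain factor known from pituitary and motor neuron development. The lowest, median and highest values were -0.21, 0.19 and 0.80 in L-LE, -0.57, -0.34 and -0.09 in L-HE, -0.12, 0.25 and 0.95 in F-LE and -0.77, 0.01 and 0.30 in F-HE. In the L line 6 of 8 HE livers lay below the lowest LE liver, and in the F line 4 of 8, membrane 59 among them. The diet difference, which chose it, was -0.48 (standard error 0.124) and -0.44 (0.117) without membrane 59, with -0.50 within the L line and -0.46 within F. For line, which did not choose it, the difference was 0.20 (standard error 0.124, adjusted p = 0.999, limma). Without membrane 59 it was 0.25 (adjusted p = 0.926). The clone matched to prolactin, a pituitary hormone, had a median signal of 0.72 and a diet difference of 0.09, or 0.18 without membrane 59.

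COE1, an early B-cell factor, had a diet difference of -0.42 (standard error 0.134) and -0.40 without membrane 59. KLF9, a Krüppel-like repressor or activator of GC-box promoters that responds to glucocorticoids in mammals, had -0.16 (standard error 0.15), -0.12 (0.147) without membrane 59 and -0.40 (0.104) without the 6 arrays of low correlation. Without those 6 arrays KLF9 also had the highest interaction of the diet list, 0.50 (unadjusted p = 0.0223, limma), which did not pass the threshold. MLL3, a histone methyltransferase of enhancers in mammals, had a diet difference of 0.10 (0.0874) and 0.12 (0.0858) without membrane 59. The line differences of these 3 members lay between 0.01 and 0.06, or 0.03 and 0.10 without membrane 59, and none was near the threshold.

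TF2H2 is a subunit of the TFIIH complex that opens promoters and serves nucleotide excision repair. It had the largest line difference of its role with all arrays, but not without membrane 59, where LHX3 had 0.25 and ATRX 0.24. By group, the lowest, median and highest values were 4.30, 5.25 and 5.67 in L-LE, 4.38, 5.11 and 5.69 in L-HE, 4.52, 5.05 and 5.59 in F-LE and -0.12, 4.62 and 5.25 in F-HE. The value of -0.12 was that of membrane 59, and the other F-HE livers began at 4.04. The line difference was -0.54 (standard error 0.317) with all arrays and -0.24 (0.142) without membrane 59. Its diet difference was -0.49 (standard error 0.317, adjusted p = 1, limma) and -0.19 without that array.

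ATRX, a chromatin remodelling helicase that deposits histones at heterochromatin, had the smallest interaction p of its role. Values (lowest, median, highest) were 1.75, 3.33 and 3.62 in L-LE, 3.31, 3.43 and 3.59 in L-HE, 2.82, 3.55 and 3.84 in F-LE and 1.75, 3.55 and 3.76 in F-HE. The medians of the 4 groups lay close together and the spread came from low livers in L-LE and F-HE. The interaction was -0.74 (standard error 0.371, adjusted p = 0.548, limma), -0.53 without membrane 59 and 0.00 (0.148) without the 6 arrays of low correlation. SETB1, a histone methyltransferase of silent chromatin, had a line difference of -0.08 that became 0.10 without membrane 59. The SETB1 median was higher in the F line on both diets. Of the F livers, 1 of 8 on LE and 3 of 8 on HE lay below the L median of their diet. The lowest SETB1 values in L-LE (0.16), F-LE (-0.99) and F-HE (-2.17, then -0.47) were on membranes 68, 62, 59 and 65, all of low correlation. The study, on 6 livers per group, reported a transcript of this match as higher in the F line on both diets. HXA3, a Hox factor of embryonic patterning, had line differences of 0.02 and, without membrane 59, 0.06. The zinc finger protein ZN180 had -0.19 and -0.11. The HXA3 medians were 0.13 in L-LE, 0.28 in F-LE, -0.11 in L-HE and 0.15 in F-HE. For HXA3, the lowest values in L-LE (-0.19), F-LE (-0.92) and F-HE (-1.10) were on membranes 68, 62 and 65, all of low correlation.

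Among splicing and RNA proteins, 5 members came from the diet list (CUGB1, TXN4A, RNPS1, RBM5 and SFRS1) and 4 from the line list (DDX31, DDX41, EXOS4 and SAM68). CUGB1, which binds GU-rich RNA and affects splicing, deadenylation and translation, had one of the larger diet differences. Values ran from 0.90 through a median of 1.73 to 2.46 in L-LE, from 0.63 through 1.08 to 1.36 in L-HE, from 1.26 through 1.60 to 2.38 in F-LE and from 0.93 through 1.39 to 2.27 in F-HE. All 8 L-HE livers lay below the L-LE median and 6 of 8 F-HE livers below the F-LE median, though ranges overlapped. The diet difference was -0.43 (standard error 0.155), -0.48 (0.147) without membrane 59, which held the highest F-HE value, and -0.62 (0.138) without the 6 arrays of low correlation.

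TXN4A is a small thioredoxin-like protein of the spliceosome. Its lowest, median and highest values were 2.95, 3.54 and 3.98 in L-LE, 2.99, 3.40 and 3.64 in L-HE, 3.55, 3.82 and 4.36 in F-LE and 1.38, 3.38 and 3.81 in F-HE. All 8 F-HE livers lay below the F-LE median, compared with 6 of 8 for the same comparison in the L line. The diet difference was -0.37 (standard error 0.161) and -0.24 (0.105) without membrane 59. The interaction was -0.52 (standard error 0.322, adjusted p = 0.548, limma), -0.26 without membrane 59, and turned to 0.06 without the 6 arrays of low correlation. RNPS1, which joins splicing to later steps of mRNA fate, had a diet difference of -0.18, RBM5, a splicing regulator of apoptosis genes, 0.14, and SFRS1, a serine/arginine-rich splicing factor, 0.00. Without membrane 59 they were -0.11, 0.20 and 0.18.

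EXOS4, a core subunit of the RNA exosome that degrades and trims RNA, was the only member under an unadjusted p of 0.05 for the interaction, with and without membrane 59. The lowest, median and highest values were -1.62, -1.40 and -0.87 in L-LE, -1.66, -1.59 and -1.26 in L-HE, -1.97, -1.77 and -0.96 in F-LE and -1.69, -1.52 and -0.73 in F-HE. Values were lower on HE in the L line, where 7 of 8 HE livers lay below the LE median, and higher on HE in the F line, where 5 of 8 LE livers lay below the lowest HE liver. The highest L-LE, F-LE and F-HE values were those of membranes 53, 62 and 59, all of low correlation. The clone had a low signal, with a median level of -1.52 (percentile 14.8 of the tested clones). The interaction was 0.46 (standard error 0.197, adjusted p = 0.548, limma), 0.36 (0.174, adjusted p = 0.811) without membrane 59 and 0.33 (0.133, adjusted p = 0.999) without the 6 arrays. It did not pass the threshold in any of these. The difference between lines was -0.35 on the LE diet and 0.11 on HE, and the latter was 0.01 without membrane 59.

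The DEAD-box RNA helicases DDX31, linked to ribosome biogenesis, and DDX41, linked to splicing and DNA sensing in mammals, had lower means in the F line. DDX31 had a line difference of -0.31 (standard error 0.133) and -0.24 (0.119) without membrane 59. On the HE diet all 8 F livers lay below the L median of 1.60. DDX41 had -0.18 (0.168) and -0.20 (0.167). SAM68, an RNA-binding protein of signalling and splicing, turned from -0.11 to 0.06 without membrane 59. Its medians were 1.07 in L-LE, 1.38 in F-LE, 0.99 in L-HE and 1.15 in F-HE. The lowest SAM68 values in L-LE (0.71), F-LE (-0.43) and F-HE (-1.71) were on membranes 68, 62 and 59, all of low correlation.

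**Figure D4:**
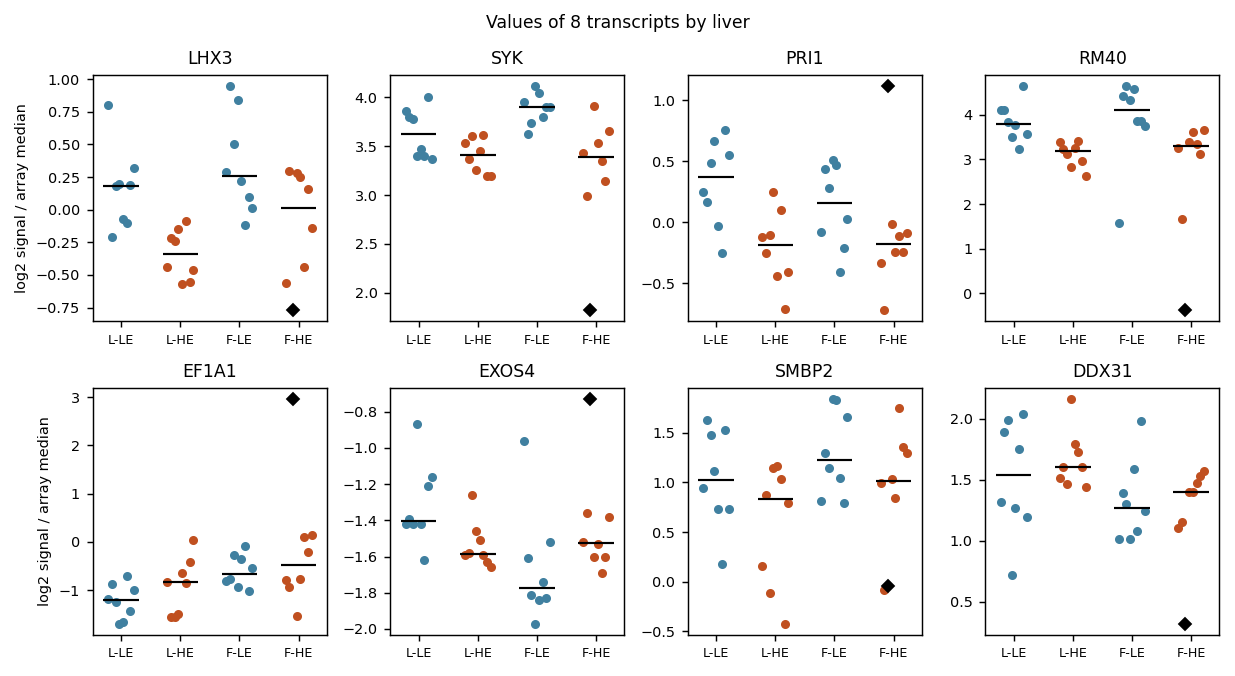
Log2 signal relative to the array median for 8 transcripts in each liver, by group, with LE livers in blue, HE livers in orange, membrane 59 as a black diamond and a line at the group median. Of the 8 panels, membrane 59 is the lowest F-HE value in LHX3, SYK, RM40 and DDX31 and the highest in PRI1, EF1A1 and EXOS4, and groups overlap in each panel.

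Translation held the largest differences of either list. Its members from the diet list were the mitochondrial ribosomal proteins RM40 and RM01, the acidic stalk protein RLA2, the ribosome biogenesis factor BOP1 and lysyl-tRNA synthetase (SYK, not the tyrosine kinase of that symbol). Those from the line list were elongation factor EF1A1, the mitochondrial amidotransferase subunit GATB, peptidyl-tRNA hydrolase PTH2 and TRM1, matched to an archaeal tRNA methyltransferase.

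RM40 had the largest diet difference of all members. By group, the lowest, median and highest values were 3.24, 3.80 and 4.65 in L-LE, 2.62, 3.18 and 3.42 in L-HE, 1.57, 4.10 and 4.64 in F-LE and -0.38, 3.30 and 3.65 in F-HE. All HE livers lay below the LE median of their line, 8 of 8 in each, and 7 of 8 LE livers of each line lay above the highest HE liver. The lowest F-LE value was on membrane 62 and the lowest F-HE value on membrane 59. The diet difference was -0.96 (standard error 0.302), -0.73 (0.222) without membrane 59 and -0.84 (0.134) without the 6 arrays of low correlation. The other mitochondrial ribosomal member, RM01, went the opposite way, with 0.19 (0.156) and 0.32 (0.0929) without membrane 59.

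For SYK, values ran from 3.37 through a median of 3.63 to 4.0 in L-LE, from 3.20 through 3.41 to 3.62 in L-HE, from 3.63 through 3.90 to 4.12 in F-LE and from 1.82 through 3.39 to 3.91 in F-HE. In the F line 6 of 8 HE livers lay below the lowest LE liver, and in the L line 4 of 8. The diet difference was -0.44 (standard error 0.131) and -0.34 (0.0908) without membrane 59. The interaction, which did not choose it, was -0.43 (standard error 0.261, adjusted p = 0.548, limma) and -0.23 without membrane 59. BOP1 had a diet difference of -0.40 (standard error 0.13) and -0.32 without membrane 59, with 8 of 8 L-HE and 6 of 8 F-HE livers below the LE median of their line. RLA2 had -0.34 (0.21) and -0.19. Among the 5 translation members of the diet list 4 were thus lower on HE in both settings.

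EF1A1, which brings aminoacyl-tRNA to the ribosome, had the largest line difference, and its best match was thesaurin A, the form of Xenopus oocytes. Its lowest, median and highest values were -1.69, -1.21 and -0.70 in L-LE, -1.55, -0.84 and 0.05 in L-HE, -1.02, -0.65 and -0.08 in F-LE and -1.54, -0.49 and 2.96 in F-HE. On the LE diet no F liver lay below the L median and 4 of 8 lay above the highest L liver, while on HE the ranges overlapped at both ends. The value of 2.96 was that of membrane 59, and the next F-HE liver was at 0.15. The line difference was 0.70 (standard error 0.266) and 0.48 (0.168) without it. The diet difference, which did not choose it, was 0.39 (standard error 0.266, adjusted p = 1, limma) and 0.17 without membrane 59.

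GATB, which makes glutaminyl-tRNA in mitochondria, had the smallest interaction p of this role. Values (lowest, median, highest) were 0.21, 1.54 and 1.90 in L-LE, 1.21, 1.54 and 2.20 in L-HE, 1.01, 1.87 and 2.12 in F-LE and -0.25, 1.81 and 1.93 in F-HE. The L-LE and L-HE medians were equal, while the lowest L-LE livers were at 0.21 and 0.29 and the lowest F-HE value was that of membrane 59. The interaction was -0.72 (standard error 0.395, adjusted p = 0.548, limma), -0.48 without membrane 59 and 0.01 without the 6 arrays of low correlation. Its line difference was 0.19 and 0.31 without membrane 59. PTH2, which releases peptides from stalled tRNA, had a line difference of -0.14 and -0.11. TRM1 had a line difference of 0.01 with all arrays and -0.33 (standard error 0.156) without membrane 59, where its value was 5.10 against at most 0.48 in the other F-HE livers.

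Members of DNA replication, repair and the centromere from the diet list were the primase subunit PRI1 and the licensing helicase subunit MCM6Z. The centromeric histone CENPA and the uracil-DNA glycosylase UNG were also from that list. MCM5, also of the licensing helicase, the damage recognition protein XPA and the helicase SMBP2 came from the line list. All 4 of the diet list had a lower mean on HE, with a median difference of -0.20, and -0.10 without membrane 59.

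PRI1, which starts DNA strands with an RNA primer, had the largest of them. Its values ran from -0.25 through a median of 0.37 to 0.76 in L-LE, from -0.71 through -0.18 to 0.25 in L-HE, from -0.41 through 0.16 to 0.51 in F-LE and from -0.72 through -0.17 to 1.12 in F-HE. All 8 L-HE livers and 7 of 8 F-HE livers lay below the LE median of their line, the exception being membrane 59 at 1.12. The diet difference was -0.37 (standard error 0.14) and -0.46 (0.116) without membrane 59. MCM6Z had -0.26 (0.212) and -0.09, CENPA -0.14 (0.163) and -0.09, and UNG -0.11 (0.0798) and -0.10.

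SMBP2, an RNA and DNA helicase, was the only member of the line list under an unadjusted p of 0.05 for diet. The lowest, median and highest values were 0.18, 1.03 and 1.63 in L-LE, -0.42, 0.83 and 1.17 in L-HE, 0.79, 1.22 and 1.84 in F-LE and -0.08, 1.01 and 1.75 in F-HE. The groups overlapped, with 5 of 8 HE livers below the LE median in each line. The diet difference was -0.43 (standard error 0.191, adjusted p = 1, limma), -0.37 without membrane 59 and -0.29 without the 6 arrays of low correlation. The line difference, which chose it, was 0.29 (standard error 0.191) and 0.35 without membrane 59.

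XPA is the damage recognition protein of nucleotide excision repair. By group, the lowest, median and highest values were -2.48, -2.04 and -0.86 in L-LE, -2.89, -2.41 and -1.89 in L-HE, -3.14, -2.60 and -0.81 in F-LE and -3.01, -2.58 and 1.83 in F-HE. The highest values of L-LE, F-LE and F-HE were on membranes 68, 62 and 59, all of low correlation. The interaction was 1.14 (standard error 0.65, adjusted p = 0.548, limma), 0.61 without membrane 59 and 0.28 without the 6 arrays. The line difference was -0.09 (standard error 0.325) with all arrays, -0.36 (0.209) without membrane 59 and -0.45 (0.126) without the 6 arrays. MCM5 went from 0.04 (0.31) to -0.25 (0.141) and -0.34 (0.102) in the same settings. Both clones were among the weakest tested, with a median level of -2.45 for XPA (percentile 2.2) and -2.1 for MCM5 (percentile 5.5).

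FYCO1, the trafficking protein, had values of -0.16, 0.22 and 0.59 (lowest, median, highest) in L-LE, -0.32, 0.05 and 0.42 in L-HE, -0.29, -0.09 and 0.16 in F-LE and -0.24, -0.08 and 0.77 in F-HE. All 8 F-LE livers lay below the L-LE median, and the highest F-HE value was that of membrane 59. Its line difference was -0.11 (standard error 0.104) and -0.16 (0.0945) without membrane 59. Its interaction was 0.33 (standard error 0.208, adjusted p = 0.548, limma) and 0.24 (0.189) without it.

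Leaving out membrane 59 turned the sign of no diet difference in the diet list, and of 4 of 17 line differences in the line list (SETB1, TRM1, SAM68 and MCM5). In the contrasts that did not choose them, 7 of 17 diet differences of the line list and 3 of 18 line differences of the diet list turned. Without all 6 arrays of low correlation, 15 of 18 diet-list members were under an unadjusted p of 0.05 for diet (6.67% of all clones) and 12 of 17 line-list members for line (7.23%). At the same limit and without the same arrays, the unchosen contrasts had 1 of 17 for diet and 1 of 18 for line. The interaction had 2 of 35 (3.97%), EXOS4 and KLF9. At an adjusted p under 0.15, 5 members of the diet list were called for diet without these 6 arrays (0.953% of all clones), 8 when all arrays were kept but weighted by their quality (1.34%), 1 after quantile normalization (0.309%) and 1 with values centred on the cDNA library of the clone (0.335%). On tank means, 0 were called (0% of all clones). The larger counts thus arose in the contrasts that had chosen the members.

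The choice of members did not use the cDNA library of the clone, read from the start of its name. The signs counted by library here are those of the contrasts that chose the members, so that they are described only. The gap between the median clone of the largest library (named 1RT) and of the library tcbk was 1.61 to 2.21 on 26 arrays and 0.34 to 1.36 on the 6 of low correlation, of which 3 were L-LE. Among line-list members, 6 of the 7 tcbk clones had a lower mean in the F line with all arrays and 7 of 7 without membrane 59, compared with 2 and 1 of 6 in the 1RT clones. Over all tested clones, the median line difference was -0.01 in tcbk (1856 clones) and -0.014 in 1RT (2731 clones). Without membrane 59 these medians were -0.038 and 0.036. In the diet list 2 of 5 tcbk clones were lower on HE, 3 of 3 1RT clones and 9 of 10 clones of other libraries. The part of the library in these differences was not tested. With each clone centred on its library, 0 of 17 were under an unadjusted p of 0.05 for diet (4.35% of all clones), 0 of 18 for line (4.07%) and 0 of 35 for the interaction (6.02%). In the line contrast that chose them, 1 of 17 members of the line list was then under that limit and 10 of 17 were lower in the F line, with a median of -0.08.

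Further clones of the 2 lists with related roles that the words did not catch or had excluded, such as the nuclear pore protein NUP53, the mRNA export protein THOC1 and the transcription factor CEBPD, were counted beside them. Of 27 such clones, 1 of them on both lists, 11 were on the diet list, all 11 with a lower mean on HE (median -0.27, and -0.24 without membrane 59), and 17 on the line list, 11 of them higher in the F line (median 0.13). For diet, 1 of the 17 on the line list was under an unadjusted p of 0.05 (3.65% of all clones), and for line 1 of the 11 on the diet list (3.32%), and none of the 27 was called with all arrays. Without membrane 59 these counts were 0 (7.45%) and 1 (5.37%). In the contrast that chose them, 3 of the 11 were then called for diet (0.528%), MYCBP, NUP53 and THOC1.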

How the data were processed

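The authors deposited log10 values, made from the radioactive signal of 1-colour nylon arrays after excluding spots with too little DNA, correcting for the DNA in each spot and dividing by the array median. The excluded spots appear as a bare 0 (41354 cells) and were set to missing. Values were converted to log2. The 128 spots of one unexplained identifier were taken to be the luciferase controls. The methods name 6 livers per group without saying which, and all 8 were used.

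The 7763 clones having 5 or more values per group were fitted by limma 3.58.1 (R 4.3.3) as group means, and p-values were adjusted over them (Benjamini-Hochberg, called under 0.15, the rate used in the study's methods). The script was tested on simulated data. Livers were the replicates, although diet was given to tanks. The within-tank correlation was 0.001 on all 32 arrays, membrane 59 included, and was not estimated without the arrays of low correlation. Arrays limit the precision by their number, and 7613 to 8134 clones were measured on each. Alternatives were membrane 59 or the 6 arrays with median correlation under 0.9 left out, array weights, tank as random block, tank means, quantile normalization, clones with all 32 values, a threshold of 0.05, two-way ANOVA and each array left out. Library-centred values and the ANOVA without membrane 59 were added after seeing the data.

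Members and lists were chosen with earlier results of these data known. Every member is named, and full values are given for those called in any setting with or without membrane 59, for the 2 of each role with the smallest p in an unchosen contrast and for the 2 with the largest difference in the choosing contrast. Other transcripts shown by liver or named beside these were picked after their values were seen.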

Additional observations from a re-analysis of the deposited data

Results flagged for a closer look

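A gap test within each group of 8 livers (Dixon, 95% level) marked 35 of 140 member and group combinations, where chance marks about 1 in 20, or 7. Membrane 59 held 18 of them, all in F-HE. It was the lowest value for SFRS1 (0.74), RM01 (-1.04), RBM5 (-1.43), BOP1 (-0.75), SYK (1.82), RNPS1 (-1.95), RLA2 (0.58), TXN4A (1.38), MCM6Z (-2.01), GATB (-0.25), DDX31 (0.32) and TF2H2 (-0.12). It was the highest for PRI1 (1.12), EF1A1 (2.96), TRM1 (5.10), EXOS4 (-0.73), MCM5 (2.58) and XPA (1.83).

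Membrane 62, an F-LE array of low correlation, held 12. It was the lowest value for RM40 (1.57), RLA2 (2.07), SETB1 (-0.99), GATB (1.01), SAM68 (-0.43), HXA3 (-0.92) and CENPA (-1.01), and the highest for PTH2 (-0.70), DDX41 (0.65), EXOS4 (-0.96), MCM5 (-1.25) and XPA (-0.81). The remaining values were RNPS1 on membrane 11 (-0.96) and TXN4A on membrane 5 (4.36) in F-LE, UNG (-0.49) and PTH2 (-1.75) on membrane 13 in L-HE, and PTH2 on membrane 65 (-0.30) in F-HE. Causes were not tested.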

How the results depend on the processing

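The counts of called members in the unchosen contrasts (0 for diet in the line list, 0 for line in the diet list and 0 for the interaction) were again 0 under every alternative run, as was the count for line in the line list. Few clones of the whole table were called either: with array weights 104 of 7763 for diet (1.34%), 12 for line and 4 for the interaction. Such small shares make a count of 0 likely in sets of this size, so that its return says little about the members. For diet and line, the members were also absent from the study's list for that factor, made from arrays of this series. The count for diet in the diet list, 0 with all arrays, was 3 without membrane 59 (0.528% of all clones), 5 without the 6 arrays of low correlation (0.953%), 8 with array weights (1.34%), 1 after quantile normalization (0.309%), 1 with library-centred values (0.335%), 5 by ANOVA at an unadjusted p under 0.01 (1.11%) and 8 by ANOVA without membrane 59 (1.71%). On tank means it was 0 (0% of all clones), and with each other array left out in turn it lay between 0 and 1. These calls are a description, since that contrast chose the members, and the cause of the changes was not tested. The interactions of GATB (0.0091), TXN4A (0.0575) and ATRX (0.0045) turned from negative to about 0 without the 6 arrays. No paired analysis was possible because the labels link no livers between groups. The numbers after the group names, taken to be tanks, are shared by several livers and were read as different tanks in each group. The number of arrays and the spread within groups limit what can be seen: the median standard error of a diet or line difference among the diet list was 0.145 on the log2 scale.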
